A study of Homo sapiens with 30 samples.

Results

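Collagens and laminins build the matrix that epithelial cells sit on, and integrins are the receptors that bind it. The genes described here are the 78 collagen, laminin and integrin chain genes on a whole human genome array, out of 30484 gene names on it. A gene was included when its name in the scanner files was COL, a number, A and a number, or LAMA, LAMB or LAMC with a number, or began with ITGA or ITGB and its description named an integrin chain. This gave 40 collagens, 12 laminins and 26 integrin chains on 127 probes, and 7 further probes whose names began with ITG were left out because they are no integrin chain. The probe with the highest mean signal stood for each of the 34 genes that had 2 or more probes.

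The arrays held RNA of the established breast cancer lines SK-BR-3, ZR-75-30, HCC1954, HCC1419 and MDA-MB-361, all of human origin. Each had been given recombinant human BMP4 (bone morphogenetic protein 4), a ligand of the TGF-beta superfamily, or vehicle, for 30 min or for 1, 3, 6, 12 or 24 h. Each of the 30 arrays set the BMP4-treated cells (Cy5) against the vehicle-treated cells (Cy3) of 1 line at 1 time point, so a time point had 5 arrays and a line had 6. The cells of triplicate wells were pooled, so each channel held 1 pooled RNA and no culture was measured on its own. A line is a single model, and p-values for a difference between lines cover only the spread between its 6 arrays.

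Trimeric collagens are secreted as procollagens and form fibrils (types I, II, III and V), the sheet-like network of the basement membrane (type IV) or beaded filaments (type VI). Laminins are heterotrimers of an alpha, a beta and a gamma chain that polymerise in the basement membrane. The laminin that holds LAMA3 and LAMB3 anchors epithelia by way of the hemidesmosome, where it is bound by the integrin of ITGA6 and ITGB4 and held by COL17A1. Integrins pair 1 alpha with 1 beta chain. ITGB1 is the common beta partner of the collagen receptors (ITGA1, ITGA2, ITGA10, ITGA11) and of the laminin receptors (ITGA3, ITGA6, ITGA7), while ITGAV pairs with several beta chains in receptors of fibronectin, vitronectin and latent growth factor.

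Promoter sequence is shown for the genes on which the results below turn, COL4A1 with its neighbour COL4A2 and the laminin chains LAMA3 and LAMB3. The sequences are from RefSeq (GRCh38.p14), which held a window for 55 of the 78 genes. COL4A1 and COL4A2 lie head to head on chromosome 13, and the 126 bases between their start sites (chr13:110307158-110307283, + strand) serve both. Capitals mark CCAAT and GGCGCC, searched on both strands, of which each was found in 1 place. Over the 126 bases upstream of the start in all 35116 windows, CCAAT was present in 21.1% and GGCGCC in 10.4%.
COL4A1/COL4A2: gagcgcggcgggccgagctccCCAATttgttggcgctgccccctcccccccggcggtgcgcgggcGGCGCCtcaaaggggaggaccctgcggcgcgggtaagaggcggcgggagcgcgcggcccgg

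For LAMA3 (chr18:23872770-23873019, + strand) and for 1 of the 3 start sites of LAMB3 (chr1:209651375-209651624, - strand) the 250 bases upstream of the start are given, the LAMB3 window being the one that held the motif. Capitals mark TGANTCA, the letters bound by AP-1 factors, searched on both strands. It was found in 2 places for LAMA3 and in 1 place for LAMB3, and in 6.57% of the 250-base stretches of all windows. A match describes these letters only and is not a measured site.
LAMA3: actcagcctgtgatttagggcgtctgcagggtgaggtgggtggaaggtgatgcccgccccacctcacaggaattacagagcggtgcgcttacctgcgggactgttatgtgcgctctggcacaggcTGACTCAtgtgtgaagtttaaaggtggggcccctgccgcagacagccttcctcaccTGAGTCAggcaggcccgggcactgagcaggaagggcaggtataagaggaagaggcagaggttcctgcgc
LAMB3: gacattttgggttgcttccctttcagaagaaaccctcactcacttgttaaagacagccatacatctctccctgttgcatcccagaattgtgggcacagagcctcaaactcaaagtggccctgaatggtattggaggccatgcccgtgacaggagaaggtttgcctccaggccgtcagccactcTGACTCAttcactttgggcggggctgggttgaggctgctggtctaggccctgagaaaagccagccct

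A gene was taken as measured in a line when its vehicle spot was well above background on at least 4 of the 6 arrays, by the mark the scanner software gives each spot. By this rule 31 of the 78 genes were measured in all 5 lines (15 collagens, 5 laminins and 11 integrin chains), 33 in some lines (16 collagens, 6 laminins and 11 integrin chains) and 14 in none. The share measured in all lines was 39.7% against 54% of the 41000 probes, and the share measured in only some lines was 42.3% against 19.5%. HCC1954 had the most genes measured, 57, followed by MDA-MB-361 with 51, SK-BR-3 with 46, ZR-75-30 with 45 and HCC1419 with 39. Over all probes, the share well above background in Cy3 was 63% to 70.6% per array in HCC1954 and 65.8% to 68.1% in MDA-MB-361. It was 58.9% to 66.3% in SK-BR-3, 62.7% to 68% in ZR-75-30 and 62.3% to 65.1% in HCC1419. The part of this general share in the counts was not tested. COL4A6, COL23A1, LAMA2, ITGA1, ITGA4 and ITGA2B were measured in HCC1954 and in no other line. COL2A1, COL21A1, COL4A3 and LAMA4 were so in MDA-MB-361, COL3A1 and COL24A1 in ZR-75-30, and ITGAX in SK-BR-3. COL1A2, the partner chain of COL1A1 in type I collagen, was not measured in any line, nor was ITGB3, the platelet and endothelial beta chain.

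The levels below are log2 Cy3 signals of the vehicle-treated cells, normalized between arrays, and they can be compared between lines for 1 gene but not between genes. Fewer cells of a type and less RNA per cell cannot be told apart in such lysates. Scan days were shared only in part: HCC1419 and MDA-MB-361 were each scanned on a day of their own, and SK-BR-3 on days that held no other line, so that for these lines the line and the scan day cannot be told apart. HCC1954 and ZR-75-30 shared a scan day with 3 arrays each, on separate slides. These were HCC1954 at 3, 6 and 24 h and ZR-75-30 at 30 min, 3 h and 12 h, so time point and slide differed too. Of the 20 member genes that differed at least 2-fold between these lines over all arrays, 20 differed in the same direction within that day, and all 20 passed an adjusted p under 0.05 there. The arrays of that day had a part in choosing the 20 genes, so this is no independent check. The epithelial markers KRT8, KRT18, KRT19 and TACSTD1 and the amplified oncogene ERBB2 were measured in all 5 lines, and CDH1 (E-cadherin) in all but SK-BR-3, where it was above background on 0 of 6 arrays. Of the 7 fibroblast and mesenchymal markers, DCN, LUM and PDGFRB were above background on no array and THY1 was measured in all 5 lines. Among leukocyte markers, PTPRC was above background on no array, and CD3E and CD68 were measured in all 5 lines.

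Most of the matrix and receptor genes differed between the lines, as did most probes on the array. With limma, 62 of the 78 genes (79.5%) had an adjusted p under 0.05 between lines, against 73.1% of all probes. In addition to this p, 23 of the 78 genes (29.5%) had at least a 4-fold range of line means, against 14.4% of all probes. Each of the 78 genes was counted by its brightest probe, whereas the backgrounds here and below count every probe. The part of this choice of probe in the shares was not tested. The median range of line means was 0.92 on the log2 scale for the 78 genes and 0.81 for all probes. HCC1954 had the highest mean for 13 of the 23 genes (56.5%), whereas it was highest for 22.8% of the 5889 probes that met the same rule. HCC1419 had the lowest mean for 12 of them (52.2%, against 18.9% of probes). Set against the mean of the other 4 lines, 17 genes (21.8%, background 5.86%) were at least 2-fold higher in HCC1954 and 14 genes (17.9%, background 4.62%) at least 2-fold lower in HCC1419. The opposite counts were 3 lower in HCC1954 (background 6.79%) and 4 higher in HCC1419 (background 5.71%). In MDA-MB-361 8 genes were higher and 5 lower (background 7.38% and 6.02%), in SK-BR-3 6 and 9 (5.4% and 5.54%), and in ZR-75-30 3 and 6 (3.87% and 3.04%).

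**Figure D1:**
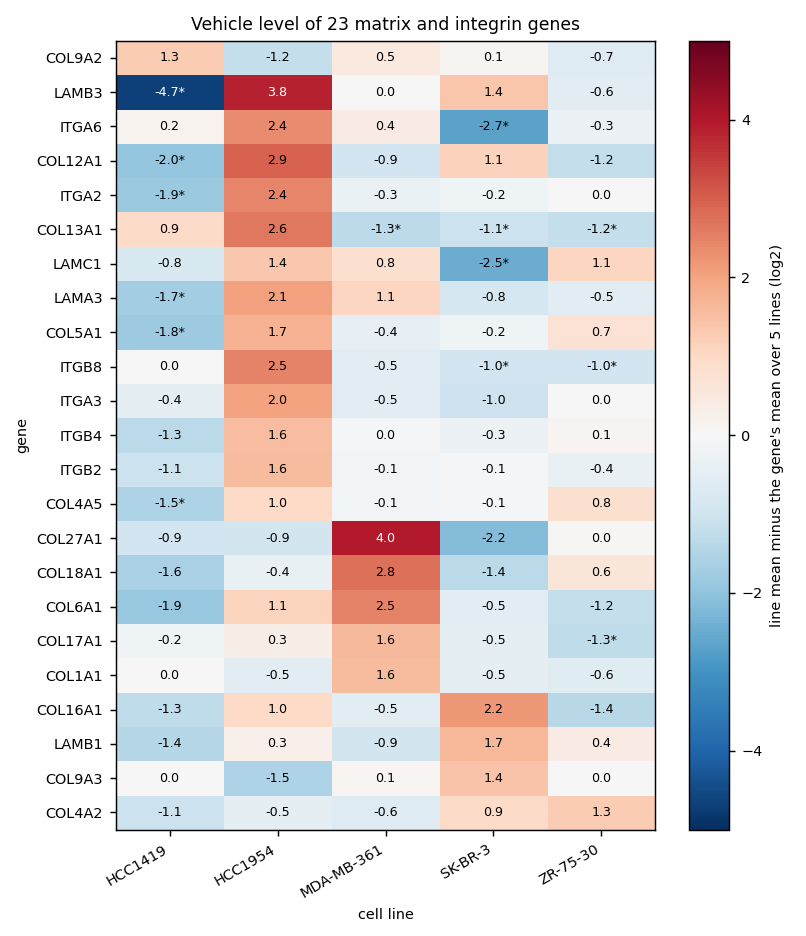
Vehicle level of the 23 genes with at least a 4-fold range, as the log2 difference of each line mean (6 arrays) from the mean over the 5 lines. An asterisk marks a line in which the gene was well above background on fewer than 4 of 6 arrays. HCC1954 has the highest mean in 13 of the 23 genes and HCC1419 the lowest in 12.

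The widest range of all members was that of LAMB3, the beta chain of the hemidesmosomal laminin. In HCC1954 its level ran from 14.89 to 15.82 with a median of 15.39. In SK-BR-3 the lowest, median and highest levels were 12.74, 12.97 and 13.10, in MDA-MB-361 they were 11.06, 11.56 and 11.89, and in ZR-75-30 they were 9.52, 11.10 and 12.02. HCC1419 stood below every array of the other lines, from 6.71 to 7.15 with a median of 6.87, and LAMB3 was well above background on 2 of its 6 arrays. The measured means of HCC1954 and HCC1419 were 363-fold apart (limma F test between lines, adjusted p = 2.43e-19). A fold to a line with only 1 or 2 arrays above background, as here, is the ratio of the measured signals, and its dim end lies near background and is not a measured level of the gene. The range of line means of LAMB3 was 8.51 on the log2 scale, and 10.30 with the processed Cy3 signal of the software. MDA-MB-361 and ZR-75-30, neighbours in this order, overlapped and differed by 0.55 (adjusted p = 0.0321).

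LAMA3, the alpha chain of the same laminin, had its extremes in the same lines. Its level in HCC1954 was between 10.11 and 10.96 with a median of 10.42, and in MDA-MB-361 between 9.20 and 9.75 with a median of 9.46. In ZR-75-30 the lowest, median and highest levels were 7.26, 7.87 and 8.38, and in SK-BR-3 they were 7.19, 7.51 and 8.42. These last 2 lines overlapped and their difference of 0.30 did not pass (adjusted p = 0.124). In HCC1419 LAMA3 was above background on 0 of 6 arrays, so that HCC1954 was at least 13.6-fold higher (adjusted p = 7.29e-16). A fold is a lower bound where the dimmer line had no array above background.

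**Figure D2:**
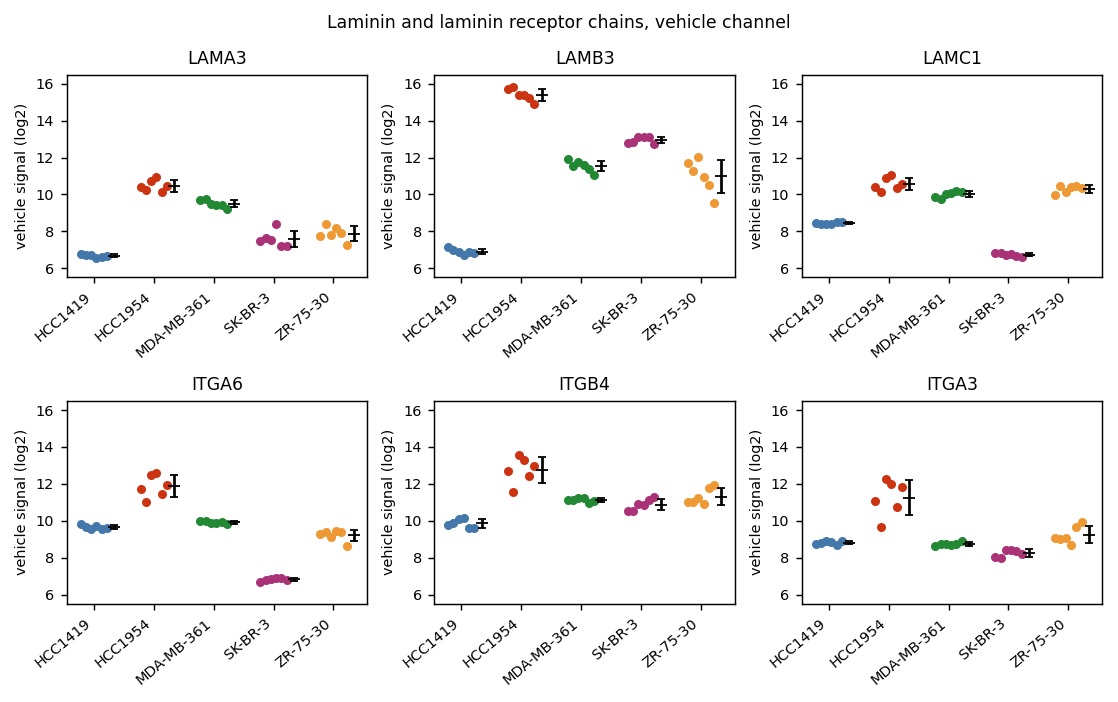
Vehicle log2 Cy3 level of LAMA3, LAMB3, LAMC1 and the laminin receptor chains by cell line, with 1 point per array (6 per line) and the line mean with its SD beside them. LAMB3 spans 6.71 in HCC1419 to 15.82 in HCC1954.

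The receptor chains of this laminin were also high in HCC1954. ITGA6 had a median of 11.82 in HCC1954 (11.03 to 12.60), 9.91 in MDA-MB-361, 9.64 in HCC1419 and 9.32 in ZR-75-30. In SK-BR-3 it ran from 6.67 to 6.92 with 2 of 6 arrays above background, so that the 33.2-fold ratio of HCC1954 to that line is one to a signal near background (adjusted p = 3.3e-16). ITGB4, its beta partner, was measured everywhere and ran from 11.54 to 13.56 in HCC1954 and from 9.60 to 10.17 in HCC1419, a 7.42-fold difference of means (adjusted p = 6.35e-10). Its medians were 11.15 in MDA-MB-361, 11.13 in ZR-75-30 and 10.90 in SK-BR-3, and neighbours among these did not differ (adjusted p = 0.563 and 0.327). ITGA3, a further laminin receptor chain, had a median of 11.44 in HCC1954 and medians between 8.29 and 9.06 in the other lines, in which no neighbouring pair passed the test. Its lowest HCC1954 array (9.67) lay below the highest ZR-75-30 array (9.93), and these arrays were of different scan days. On the day shared by these lines ITGA3 ran from 11.83 to 12.24 in HCC1954 and from 9.04 to 9.65 in ZR-75-30. On the other day of HCC1954 it ran from 9.67 to 11.06. Scan day, slide and time point differed together there and cannot be told apart.

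COL17A1 had another order, with the highest level in MDA-MB-361 (9.32 to 9.94) and the lowest in ZR-75-30 (6.61 to 6.88, above background on 1 of 6 arrays), a ratio of signals of 7.49-fold with its dim end near background. LAMC1, the most widespread laminin gamma chain, was highest in HCC1954 and ZR-75-30 (medians 10.49 and 10.37) and close to background in SK-BR-3 (6.63 to 6.82, 1 of 6 arrays above it), a 14.2-fold ratio of the measured signals. LAMB1 had the opposite extreme, as SK-BR-3 was highest (13.12 to 14.56) and HCC1419 lowest (10.33 to 10.80), 8.57-fold apart (adjusted p = 4.09e-12). SK-BR-3 was therefore the line with the highest LAMB1 and the lowest LAMC1, 2 chains that occur in the same trimers. LAMA5, the alpha chain of the widespread epithelial laminins, varied least among these, with a 1.66-fold range of line means.

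Among the basement membrane collagens, COL4A1 and COL4A2 had different orders of the lines. COL4A1 had medians of 8.30 in MDA-MB-361, 8.11 in HCC1419, 7.82 in HCC1954, 7.71 in SK-BR-3, and 7.57 for ZR-75-30, a 1.71-fold range of means. COL4A2 had medians of 10.23 in ZR-75-30, 9.79 in SK-BR-3, 8.39 in HCC1954, 8.23 in MDA-MB-361 and 7.83 in HCC1419, a 5.15-fold range (adjusted p = 1.9e-14). ZR-75-30 thus had the lowest mean for COL4A1 and the highest for COL4A2. Its COL4A1 arrays overlapped those of HCC1954, and neighbouring lines were not tested for this gene. In HCC1954, COL4A1 ran from 7.51 to 7.57 on the scan day shared with ZR-75-30 and from 8.06 to 8.41 on its other day. Within the shared day HCC1954 minus ZR-75-30 was 0.22 for COL4A1, which did not pass an adjusted p under 0.05, and -2.07 for COL4A2, which did. COL4A5 was not above background in HCC1419, and HCC1954 was at least 5.47-fold higher by the brighter probe (a second probe, above background on 23 arrays, had a range of 0.66 on the log2 scale and SK-BR-3 as its highest line). COL18A1, the source of endostatin, was highest in MDA-MB-361 (14.78 to 15.18) and lowest in HCC1419 (10.32 to 10.93), 21-fold apart, and a second bright probe kept these lines as extremes with a range of 1.28.

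Of the 11 fibrillar collagens only COL1A1, COL5A1 and COL27A1 had a 4-fold range. COL27A1 ran from 13.11 to 13.68 in MDA-MB-361 and had a median of 7.26 in SK-BR-3, and the means were 69.9-fold apart (adjusted p = 1.18e-18). A second COL27A1 probe, above background on all 30 arrays, also had its highest mean in MDA-MB-361 but a range of only 0.69, so the size of this difference rests on 1 probe. COL1A1 was 9.12 to 9.36 in MDA-MB-361, above every array of the other lines, whose medians lay between 6.99 and 7.67. COL5A1, a chain that regulates fibril width, was at least 10.9-fold higher in HCC1954 (median 10.15) than in HCC1419, where it was above background on 0 of 6 arrays.

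COL6A1, a chain of the beaded filaments, was 20.5-fold higher in MDA-MB-361 (11.79 to 12.16) than in HCC1419 (7.38 to 7.82), and every neighbouring pair in the order MDA-MB-361, HCC1954, SK-BR-3, ZR-75-30 and HCC1419 differed (adjusted p = 7.22e-05 or less). COL12A1, which coats fibrils, had a median of 11.41 in HCC1954, 9.43 in SK-BR-3, 7.51 in MDA-MB-361 and 7.12 in ZR-75-30. It was above background on 0 of 6 arrays in HCC1419, so that HCC1954 was at least 27.1-fold higher (adjusted p = 1.29e-16), and a second probe was also highest in HCC1954 and lowest in HCC1419. COL13A1, a transmembrane collagen, was measured in HCC1954 (median 10.35) and HCC1419 (median 9.21) and on at most 2 of 6 arrays of each other line. COL16A1 and COL9A3 were highest in SK-BR-3, 11.7-fold above ZR-75-30 and 7.73-fold above HCC1954. COL9A2 was the only gene of the 23 with its highest mean in HCC1419 (median 9.72), 5.46-fold above HCC1954.

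Among the collagen and matrix receptors, ITGA2, the alpha chain of the main epithelial collagen receptor, had a median of 11.15 in HCC1954, 6.51 in HCC1419 and 8.22 to 8.64 in the remaining lines. In HCC1419 it was above background on 1 of 6 arrays. The measured signals of HCC1954 and HCC1419 were 19.8-fold apart (adjusted p = 2.19e-13), with the HCC1419 mean near background and raised by its array at 30 min (7.38, nearest other array 6.52), and 3 further ITGA2 probes had the same extremes. ITGB8, a partner of ITGAV, was highest in HCC1954 (9.81 to 10.53) and was above background on 1 of 6 arrays in both SK-BR-3 and ZR-75-30, and the signal of HCC1954 was 11-fold that of ZR-75-30. ITGB2, the beta chain of leukocyte integrins, was measured in all lines and had a median of 9.92 in HCC1954 and of 7.22 in HCC1419, a 6.31-fold difference. ITGAV was highest in HCC1419, with a median of 13.16 against medians of 11.21 to 11.96 elsewhere.

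ITGB1 was bright in every line, with medians from 13.79 in SK-BR-3 to 15.41 in MDA-MB-361, a 3.09-fold range that did not reach 4-fold. With 2 other ITGB1 probes, above background on all 30 arrays, HCC1954 was highest and SK-BR-3 lowest, with ranges of 2.23 and 2.07 on the log2 scale. Over all members, 11 other probes were above background on more than 15 arrays, and 8 of them had the same highest line and 7 the same lowest line as the probe used. Of the 5 genes called at 4-fold that had such a probe, 2 (COL12A1 and ITGA2) were also called with it.

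The genes whose 5 line means were most like those of LAMB3 were ITGAL (r = 0.96), ITGA2 (0.92), ITGB2 (0.92), COL12A1 (0.91) and ITGB4 (0.91). Of these ITGAL did not differ between lines, since its means lay near background with a range of 0.22 on the log2 scale (limma F test, adjusted p = 0.0859). These are correlations over 5 points that come from the same arrays, given as a description, and LAMA3 (0.79) followed lower in that list. Some markers of other cell types were also higher in HCC1954. The basal epithelial genes KRT5, KRT14 and TP73L (the older name of TP63) were all measured there, with medians of 13.39, 15.08 and 12.39. Only KRT14 or KRT14 and TP73L were measured in each of the other lines. All 3 were at least 2-fold higher in HCC1954 than in the other lines. In HCC1419, 1 of the 3 was also at least 2-fold higher than in the other lines and 2 were at least 2-fold lower. KRT14 was the only one measured in HCC1419. The mean level over the 3 was 13.63 in HCC1954, 8.29 in HCC1419 and 7.39 or less in the remaining lines. Of the 7 fibroblast and mesenchymal markers 4 were measured in HCC1954 and 1 to 3 in the others, and VIM (vimentin) had a median of 14.26 in HCC1954 and medians of 6.53 to 7.62 elsewhere. The mean level over the 7 was 8.66 in HCC1954 and 7.03 to 7.82 in the other lines, and its part in the levels above was not tested.

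Other genes of matrix assembly were taken as 42 genes in 4 lists, and 7 of 16 collagen processing genes, 4 of 9 matrix partners, 6 of 14 adhesion adaptors and 0 of 3 hemidesmosome partners had at least a 4-fold range between lines (background 14.4%). HCC1954 was at least 2-fold higher than the other lines for 5, 2, 4 and 0 of them (background 5.86%) and lower for 2, 0, 0 and 0 (background 6.79%). The lysyl oxidase LOXL2, which cross-links collagen, had a median of 12.00 in HCC1954 and medians of 6.96 to 9.79 elsewhere. TNC (tenascin C) had a median of 11.52 in HCC1954 and of 6.89 to 8.30 in the other lines. FN1 (fibronectin), the ligand of the ITGA5 receptor, was lowest in HCC1419 (median 6.96), and its medians in the other 4 lines lay between 9.04 and 9.68.

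The response to BMP4 was read as the late change, the mean log2 ratio of BMP4 over vehicle at 3, 6, 12 and 24 h minus that at 30 min, with the cell line as a block. As a check of the treatment, the direct BMP targets ID1, ID2, ID3 and ID4 rose late by 1.02 ± 0.13, 1.33 ± 0.19, 0.96 ± 0.11 and 0.95 ± 0.14 (SE; limma, adjusted p = 0.000507, 0.00161, 0.000109 and 0.00164), each in 5 of 5 lines. None of the 78 matrix and receptor genes passed this test at an adjusted p under 0.05, as against 38 of 41000 probes (0.0927%). At an unadjusted p under 0.05 there were 5 (6.41%, background 4.99%), of which 4 were higher late (5.13%, background 3.37%) and 1 lower (1.28%, background 1.62%). In the F test over all 5 differences from 30 min 0 members passed (37 probes did, 0.0902%), and 2 had an unadjusted p under 0.05 (2.56%, background 4.2%).

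For the 31 genes measured in all lines the late change lay between -0.13 and 0.29, above 0 for 19 and below 0 for 12. Their 95% intervals lay between -0.47 and 0.54, so that all 31 lay inside a 2-fold change in either direction, as an average over the lines and late time points. The median size of the late change was 0.05 for the 78 genes and 0.05 for all probes. The highest estimate was that of COL9A3, 0.29 ± 0.12 (SE), higher late in 4 of the 4 lines with a 30 min value (unadjusted p = 0.0261, adjusted p = 0.96). The smallest unadjusted p in limma was that of ITGA7, the muscle laminin receptor chain, with a late change of 0.16 ± 0.06 (SE; unadjusted p = 0.00714, adjusted p = 0.777). COL17A1 had a late change of 0.20 ± 0.09 and COL12A1 one of -0.19 ± 0.10 (adjusted p = 0.965 for both).

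The hemidesmosomal laminin and integrin chains that set the lines apart had late changes near 0. They were 0.10 ± 0.11 for LAMB3, -0.08 ± 0.09 for LAMA3, -0.05 ± 0.07 for ITGA6 and -0.03 ± 0.10 for ITGB4. COL17A1, also of the hemidesmosome, had the larger late change given above, which did not pass the test either. The late change differed between lines for 0 members (27 probes, 0.0659%), and 5 members had an unadjusted p under 0.05 (6.41%, background 6.05%).

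**Figure D3:**
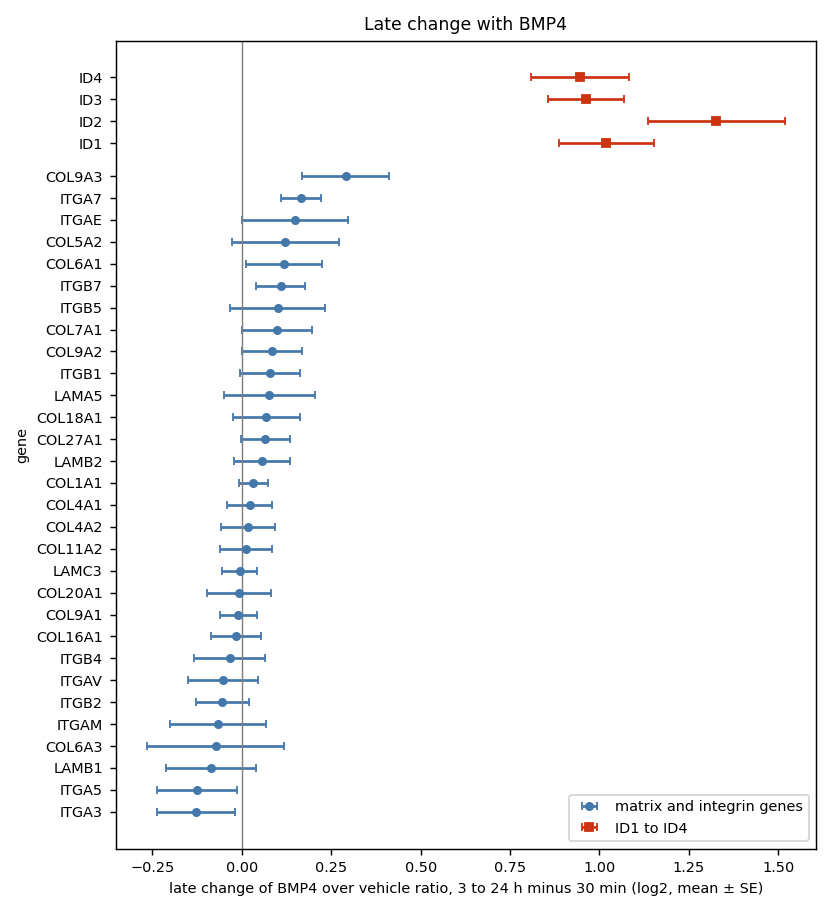
Late change of 30 of the 31 genes measured in all 5 lines (mean log2 ratio of BMP4 over vehicle at 3 to 24 h minus that at 30 min) with its SE, beside ID1 to ID4. The estimates of these genes lie between -0.13 and 0.29, and those of the 4 ID genes between 0.95 and 1.33.

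The ratio at each time point was also tested against 0. Since BMP4 carried Cy5 on every array and the dyes were not swapped, a constant dye difference of a probe cannot be told apart from an effect of BMP4 in this test. Higher with BMP4 were 2 members after 1 h (2.56%, background 0.612%), 1 after 3 h (1.28%, background 0.29%), 1 after 12 h (1.28%, background 0.351%) and 3 after 24 h (3.85%, background 1.06%). No member was higher at 30 min or 6 h (background 0.0585% and 0.139%). No member was lower at any time point, where the backgrounds in order of time were 0.022%, 0.361%, 0.0585%, 0.0366%, 0.112% and 0.52%. These 7 calls belonged to 4 genes and COL4A1 held 3 of them. With 1 median factor per array in place of loess none of the 7 passed.

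COL4A1, with COL4A2 the main chain of the basement membrane network, was above 0 on 29 of 30 arrays. At 24 h its log2 ratios were 0.60 in MDA-MB-361, 0.36 in HCC1954, 0.35 in SK-BR-3, 0.30 in ZR-75-30 and 0.14 in HCC1419, with a mean of 0.35 ± 0.17 (SD, n = 5; limma, adjusted p = 0.00122). It was likewise called at 1 h (0.35 ± 0.18, adjusted p = 0.0016) and at 3 h (0.29 ± 0.09, adjusted p = 0.0224). The ratio was already 0.23 ± 0.09 at 30 min, with values of 0.12 to 0.37, and 0.18 ± 0.13 at 12 h. The late change from 30 min was therefore 0.02 ± 0.06 (SE, adjusted p = 0.995), and a second COL4A1 probe was above background on no array. The call at 24 h held without each line in turn, whereas that at 1 h was lost without HCC1954 (adjusted p = 0.0639) and that at 3 h without any 1 line other than SK-BR-3 (0.0681 to 0.189). COL4A2, across the shared stretch printed above, was above 0 on 14 of 30 arrays, and its mean at 24 h was 0.07 ± 0.32 with values from -0.42 in MDA-MB-361 to 0.43 in HCC1954 (SD, n = 5, adjusted p = 0.79).

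COL9A3, a chain of the cartilage type IX collagen, was called at 12 and 24 h. Its ratios at 30 min were 0.39 in SK-BR-3, 0.12 in HCC1419, 0.04 in HCC1954 and -0.02 in ZR-75-30, with no value in MDA-MB-361. At 12 h they were 1.01 in SK-BR-3, 0.97 in ZR-75-30, 0.55 in MDA-MB-361, 0.46 in HCC1419 and -0.01 in HCC1954, with a mean of 0.60 ± 0.42 (SD, n = 5; limma, adjusted p = 0.0129). At 24 h they lay between 0.07 in HCC1419 and 0.63 in MDA-MB-361 (0.46 ± 0.23, adjusted p = 0.0397). The time points overlapped within lines such as HCC1419, which had 0.46 at 12 h and 0.07 at 24 h. The call at 12 h was lost when HCC1419, SK-BR-3 or ZR-75-30 was left out (adjusted p = 0.0824, 0.0723 and 0.202), and that at 24 h when any 1 line was left out (0.0551 to 0.159).

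**Figure D4:**
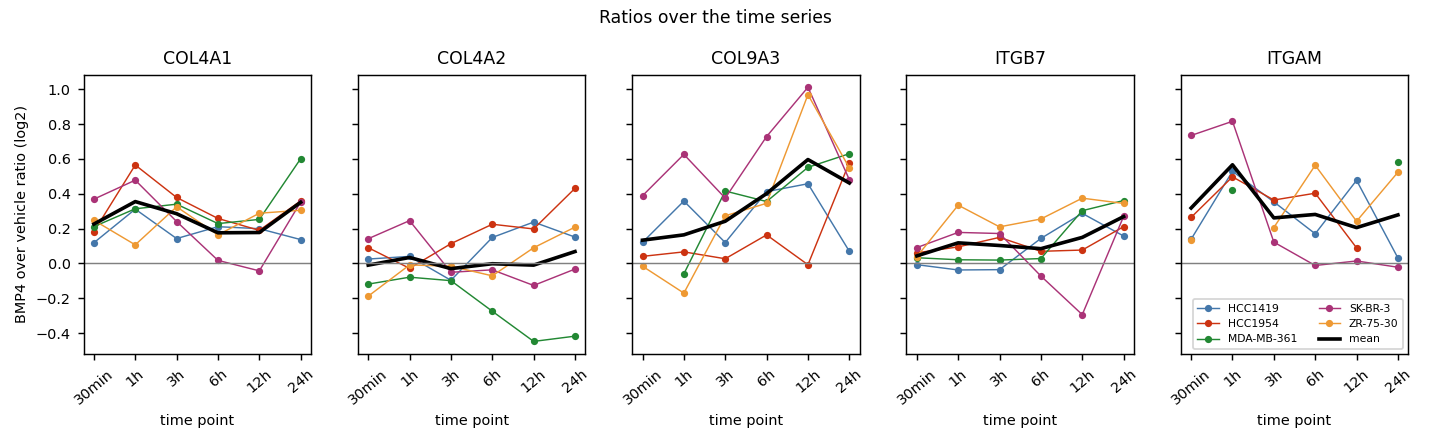
Log2 ratio of BMP4 over vehicle against time point for COL4A1, COL4A2, COL9A3, ITGB7 and ITGAM, with 1 thin line per cell line, 1 point per array and the mean over lines in black. COL4A1 lies above 0 on 29 of 30 arrays from the first time point on, and COL9A3 reaches 1.01 in SK-BR-3 at 12 h.

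ITGB7, the beta chain of lymphocyte homing receptors, had ratios at 24 h of 0.36 in MDA-MB-361, 0.34 in ZR-75-30, 0.27 in SK-BR-3, 0.21 in HCC1954 and 0.16 in HCC1419, a mean of 0.27 ± 0.09 (SD, n = 5; limma, adjusted p = 0.0301). At 30 min all 5 lay between -0.01 and 0.09, below every value at 24 h, and the late change was 0.11 ± 0.07 (SE, adjusted p = 0.965). The call at 24 h was lost without any 1 line other than SK-BR-3 (adjusted p = 0.0695 to 0.144). ITGAM, the alpha chain of the myeloid complement receptor, had ratios at 1 h of 0.82 in SK-BR-3, 0.53 in HCC1419, 0.50 in HCC1954 and 0.42 in MDA-MB-361 (0.57 ± 0.17, n = 4, adjusted p = 0.0167). At 30 min its ratios were already 0.73 in SK-BR-3, 0.26 in HCC1954, 0.14 in HCC1419 and 0.13 in ZR-75-30. ITGAM was above 0 on 22 of the 24 arrays with a value, and a constant dye difference cannot be told apart from an effect of BMP4. It had no value on 6 of the 30 arrays because the software marked the spots as outliers, and the call was lost without HCC1419 or HCC1954 (adjusted p = 0.0914 and 0.0993). Of the leukocyte markers CD3E and CD68 were measured in every line and PTPRC was above background on no array, and their part was not tested.

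Single ratios of 2-fold or more were rare. They occurred once each for 4 of the 78 genes (5.13%, against 7.8% of all probes with at least 1 such array), and all 4 were at 12 h. In SK-BR-3 these were COL6A3 (-1.53), LAMA5 (-1.12) and COL9A3 (1.01), and in ZR-75-30 ITGAE (1.03). With array weights, the arrays of SK-BR-3 and ZR-75-30 at 12 h had low weights of 0.36 and 0.34, on a scale where the highest was 4.43.

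The mean ratio over all time points differed between lines for 14 members (limma F test, 17.9%, background 22.2%), a share below that of all probes. In 10 of the 14 MDA-MB-361 was the line farthest from the median of the lines. This count was not made over all probes, so it cannot be called particular to these genes. The mean ratio of ITGB1 was -0.30 ± 0.09 (SD, n = 6) in MDA-MB-361 but 0.09 to 0.24 elsewhere (adjusted p = 0.00429), and all 6 of its MDA-MB-361 values, from -0.42 to -0.19, were negative. LAMA5 was 0.21 ± 0.19 in MDA-MB-361 and -0.48 to -0.13 elsewhere (adjusted p = 0.0187), and ITGA3 was 0.16 ± 0.09 against -0.38 to -0.16 (adjusted p = 0.031). LAMA3, LAMA4, COL18A1, COL4A2, COL2A1 and ITGA7 were also among the 10. Each had its lowest mean in MDA-MB-361 except COL2A1, which was highest there. LAMA4 and COL2A1 were above background on 0 of 6 vehicle arrays in each other line, and LAMA3 on 0 of 6 in HCC1419. Ratios in those lines come from signals near background, so for these genes the difference cannot be read as one in the response to BMP4. LAMB3, COL16A1 and COL27A1 had ZR-75-30 as the farthest line, with mean ratios of 0.30, 0.15 and 0.32, and COL13A1 had HCC1419 (-0.23).

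The calls were lost without MDA-MB-361. With the other 4 lines 0 members and 96 probes passed, 9 members had an unadjusted p under 0.05 and the smallest adjusted p of a member was 0.0953. The line farthest from the median was another one for LAMB3, COL27A1 and COL16A1 (ZR-75-30) and for COL13A1 (HCC1419), and without MDA-MB-361 the ranges of their line means were 0.35, 0.35, 0.28 and 0.37. MDA-MB-361 was scanned on a day of its own, so that line and scan day cannot be told apart for it. The slope of the spike-in controls was 0.525 to 0.679 on its arrays and 0.525 to 0.877 over all arrays, and its part was not tested. Within the scan day shared by HCC1954 and ZR-75-30, 11 of the 14 genes differed in the same direction as over all arrays and 0 passed an adjusted p under 0.05. That comparison cannot check the 14 calls, since it holds no MDA-MB-361 array and its arrays are part of the overall difference. The same count was not made over all probes. For ITGB1, 2 other probes also differed between lines (adjusted p = 0.00831 and 0.0215).

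**Figure D5:**
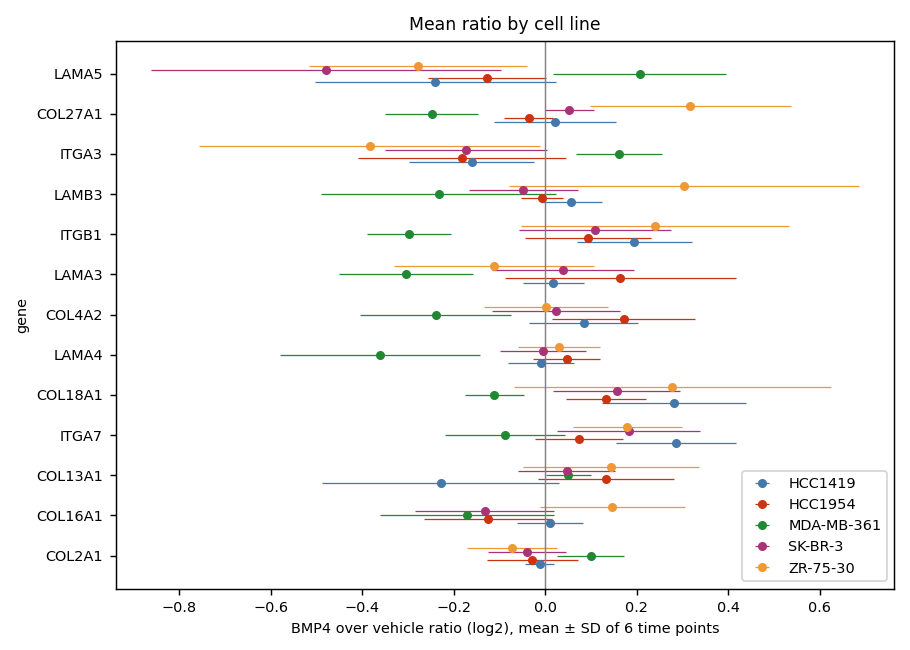
Mean log2 ratio of BMP4 over vehicle by cell line (points, means of up to 6 arrays with SD) for 13 of the 14 members that differed between lines. MDA-MB-361 stands apart in most of them, as for ITGB1 at -0.30.

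Of the 42 other matrix assembly and adhesion genes, 0 passed the late change or the test over time, and 11 had a mean ratio that differed between lines (background 22.2%). P4HA2, a subunit of the prolyl hydroxylase that stabilises the collagen helix, was the single one called against 0, at 24 h (log2 ratio 0.35, limma, adjusted p = 0.0369). Its late change was 0.23 ± 0.07 (SE), above 0 in 5 of 5 lines, with an unadjusted p of 0.00323 and an adjusted p of 0.61.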

How the data were processed

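The data were 30 two-colour Agilent arrays, 1 for each of 5 cell lines at 6 time points, with vehicle in Cy3 and BMP4 in Cy5. Per the file headers, the authors extracted them with Feature Extraction 9.5.1.1, and the mean signals and local backgrounds used here are deposited as unnormalized intensity values. The deposited series matrix holds the authors' log2 ratios, centred per array, and the deposited log10 ratios were not used.

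The signals were corrected with normexp (offset 50), ratios were normalized by loess within arrays, and spots were averaged per probe with limma 3.58.1 in R 4.3.3. Control spots and spots marked as outliers were left out. Vehicle levels were the Cy3 signals after loess and Aquantile scaling. Tests used lmFit and eBayes, and p-values were adjusted by Benjamini-Hochberg over the whole table of 41000 probes. The late and time tests had the cell line as a block, the ratio against 0 had none, and the tests between lines had the time point as a covariate (for the late change between lines, a model of line by phase). Replicate numbers stand for the lines, so the same line pairs arrays across time points, and deviations correlated with a mean r of 0.23 over 75 same-line pairs and of -0.06 between lines. The spots well above background made up 58.9% to 70.6% of probes in Cy3 and 56.3% to 70.8% in Cy5, and precision is limited by how many arrays there are.

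The members, lists and tests were chosen with earlier results of these data known. Named were genes past a ratio test, the 10 largest late changes and the 10 smallest time p-values among genes above background on more than 15 arrays, the 15 widest level ranges, and a fixed set of matrix and receptor genes. Genes named beyond these (COL9A2, COL21A1, COL23A1, COL24A1, COL4A3, LAMA2, ITGA1, ITGA2B, ITGA4, ITGAL, ITGAX and ITGB2) were chosen after their values were seen. LOXL2, TNC and FN1, from the lists of other matrix assembly genes, met none of these rules either. The values of 1 member are not reported here. Gene names are those of the array design, and 74 accessions matched RefSeq. The fits were tested on simulated data. Alternatives were another normalization, the processed signals, the matrix, array weights, a filter on dim probes, other probes, blocks of line, scan day and slide, and leaving out each line or time point.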

Additional observations from a re-analysis of the deposited data

Results flagged for a closer look

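In 12 of 152 groups of 5 or 6 arrays, 1 array stood apart from the others by Dixon's test, which chance gives in about 1 group in 20. Among the ratios, COL9A3 at 24 h was 0.0695 in HCC1419 (nearest 0.48). COL2A1 at 3 h in HCC1954 was -0.23 (nearest 0.00), and LAMA4 at 3 h in HCC1419 was -0.15 (nearest -0.01). Both were above background on 0 of 6 vehicle arrays in these lines, so the 2 values are ratios of signals near background. ITGA7 stood apart in 4 lines, at 0.0263 in HCC1419 at 30 min (nearest 0.30), -0.11 in HCC1954 at 30 min (nearest 0.05), 0.50 in SK-BR-3 at 1 h (nearest 0.14) and 0.40 in ZR-75-30 at 24 h (nearest 0.19). Among the vehicle levels, ITGA2 was 7.38 in HCC1419 at 30 min (nearest 6.52) and 9.65 in HCC1954 at 1 h (nearest 10.84). COL13A1 was 7.58 in SK-BR-3 at 3 h (nearest 7.01), LAMA3 was 8.42 in SK-BR-3 at 6 h (nearest 7.63) and ITGA3 was 8.92 in MDA-MB-361 at 24 h (nearest 8.75). ITGA2 in HCC1419 and COL13A1 in SK-BR-3 were above background on 1 and 2 of 6 arrays.

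The ratio of BMP4 over vehicle differed between lines for 14 members by limma's F test. For 13 of them the adjusted p was 0.00174 for COL27A1, 0.00366 for LAMA4, 0.00429 for ITGB1, 0.00442 for ITGA7, 0.0161 for COL4A2, 0.0187 for LAMA5, 0.0212 for LAMA3, 0.0233 for COL16A1, 0.0277 for LAMB3, 0.0304 for COL13A1, 0.031 for ITGA3, 0.0456 for COL2A1 and 0.0459 for COL18A1. Of these, 0 passed without MDA-MB-361.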

How the results depend on the processing

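No member passed the late change, the change over time or the late change between lines under any alternative run. With the cell line as a block these counts are those of the text, and with no replicate block the late change and the change over time again gave 0. The 7 calls against 0 (over members and time points) became 0 with 1 median factor per array in place of loess, 11 with array weights (4 of the 7 shared), 4 with another probe where a gene had one, and 10 with the replicate block. Leaving out 1 line gave 2 to 5, with 2 without HCC1419, 2 without HCC1954 and 3 without ZR-75-30. The COL4A1 call at 24 h was lost with the median factor (adjusted p = 0.0574, over all alternatives 0.000299 to 0.0574). The 14 differences in ratio between lines became 0 with the median factor, 9 with the series matrix (5 of the 14 shared) and 27 with array weights (all 14 shared), and 0 to 17 without 1 line. The 23 genes with a 4-fold level range became 39 with the processed Cy3 signal, which included all 23, and 37 with a 2-fold range. They numbered 16 to 23 without 1 line, 16 of these without HCC1954, and 23 to 25 without 1 time point. The 75 calls of a line against the others became 133 with the processed signal and 75 to 80 without 1 time point. The causes were not tested. Slide as a random block was chosen after the headers were seen and kept all 23 genes, the 7 calls against 0, and 12 of the 14 differences in ratio between lines. With the processed Cy3 signal the log2 ranges of genes whose lowest line had 1 or 2 arrays above background widened, to 10.30 for LAMB3, 7.66 for ITGA2, 7.58 for ITGA6, 6.61 for ITGB8, 6.18 for LAMC1 and 5.47 for COL17A1.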
